A study of Mus musculus with 4 samples.

Results

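Expression of 10 genes, grouped as NF-kB feedback genes and epithelial chemokines, was followed in mouse colonoids. Colonoids are cultures of colonic epithelium grown as 3-dimensional structures from isolated crypts. The 10 genes were taken as a named list, drawn up with earlier results of these data known. They comprise 3 feedback genes (*Nfkbia*, *Nfkbiz* and *Tnfaip3*), 6 chemokine genes (*Cxcl1*, *Cxcl5*, *Cxcl16*, *Cx3cl1*, *Ccl20* and *Ccl28*) and the cytokine gene *Il18*. All 10 were found among the 36144 gene names of the count table. Colonoids were left untreated or given 2 mM sodium butyrate, a short-chain fatty acid made by gut bacteria, and RNA was sequenced in bulk at 48 h (day 2) and at 72 h (day 3), with 1 library for each of the 4 conditions. All 4 cultures were at passage 3 and shared a crypt medium with EGF, Noggin, R-spondin, the GSK3 inhibitor CHIR99021 and the ROCK inhibitor Y-27632. The sample labels give a wild-type male mouse aged 24 weeks as the source, whereas the study describes its organoids for this sequencing as derived from 1 Hes1-GFP reporter mouse. All 4 libraries then come from the same animal, and genotype entered no comparison. Since no condition was replicated, differences cannot be set against replicate error, and no p-value was computed. Intervals are 95% Clopper-Pearson intervals on a pair of counts, and they cover counting error only.

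NF-kB is a family of dimeric transcription factors that inhibitory IkB proteins hold in the cytoplasm. Cytokines and bacterial products activate the IkB kinase, IkB is degraded, and the freed dimers enter the nucleus, where they bind short kB sites in the promoters of their targets. Among those targets are genes for the pathway's own inhibitors, which close a negative feedback loop, and genes for chemokines, which draw leukocytes to the gut wall. Colonic epithelial cells express several of these chemokines and store the precursor of interleukin-18.

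The kB-like letters upstream of 4 of these genes are shown because NF-kB binds its targets at such sites. Whether each of the 10 genes is a target was not tested. RefSeq promoters in the GRCm38.p6 build, from 250 bases before to 50 bases after a start site, were matched by symbol for 7 of the 10 genes (8 promoters, 2 of them of *Tnfaip3*). The kB consensus (3 G, a purine, 2 of any base, 2 pyrimidines and 2 C) was searched on both strands. It was found in 4 of the 8 promoters, those of *Nfkbia*, *Tnfaip3*, *Cxcl1* and *Ccl20*. Of all 32851 promoters of the same length, 8.46% held it. The consensus was chosen after looser and narrower letters had been searched in the same promoters, so these shares are a description and not a test. The stretches below run 5′ to 3′ on the strand of the gene, and capitals mark the letters matched by the consensus on either strand. For *Nfkbia*, *Cxcl1* and *Ccl20* they cover the positions from 130 to 11 bases upstream of the start site, and for *Tnfaip3* a stretch of 30 bases around the match. They lie at chr12:55492658-55492777 (minus strand), chr5:90891115-90891234 (plus), chr1:83116636-83116755 (plus) and chr10:19015403-19015432 (minus), in the order shown.
*Nfkbia*: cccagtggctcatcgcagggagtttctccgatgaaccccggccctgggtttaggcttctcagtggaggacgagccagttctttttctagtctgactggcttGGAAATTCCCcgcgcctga
*Cxcl1*: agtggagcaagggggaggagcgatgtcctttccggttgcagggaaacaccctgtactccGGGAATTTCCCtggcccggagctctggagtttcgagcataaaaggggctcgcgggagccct
*Ccl20*: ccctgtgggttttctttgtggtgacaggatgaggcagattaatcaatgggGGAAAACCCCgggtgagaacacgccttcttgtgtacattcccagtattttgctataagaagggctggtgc
*Tnfaip3*: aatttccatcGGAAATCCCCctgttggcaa

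The capitals of *Cxcl1* are a run of 2 overlapping matches, 1 per strand, and a second place in the same *Tnfaip3* promoter, not shown, matched on both strands. The promoters of *Cx3cl1*, *Il18* and *Ccl28* and the second promoter of *Tnfaip3* held no match, which says only that these letters are not in this window. A match is a description of letters, and binding was not measured here.

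The libraries held between 20790225 and 24207840 counts, with mitochondrial genes at 14.1% to 18.4%. Every one of the 10 genes had more than 10 counts in each library, the lowest being 16 counts of *Ccl20*, so that all 10 were among the 13979 genes that passed the filter of the methods. The 11 epithelial markers followed (*Epcam*, *Cdh1*, keratins, *Cdx2*, *Vil1* and others) all passed this filter, with summed normalised counts between 169391 and 212478. Of 10 immune markers, 8 did not pass it, and the macrophage genes *Adgre1* and *C1qb* had no count in any library. The exceptions were *Itgam* and *Cd68*, of which *Cd68*, a lysosomal membrane glycoprotein abundant in macrophages, had 128 (untreated) and 1309 (butyrate) counts in the 48 h libraries, against 172 and 420 in those of 72 h. Without *Cd68* the summed normalised counts of the immune markers were between 43.5 and 71.3. Fibroblast markers summed to between 15.1 and 21.8 and endothelial markers to between 32.7 and 56.3 normalised counts. In bulk RNA, fewer cells of a type and less RNA per cell cannot be told apart.

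Levels were compared between genes as normalised counts per kb of annotated exon, averaged over the 4 libraries. *Nfkbia* was the highest at 1295, between 1017 and 1531 in single libraries, and its range did not meet that of any other gene. *Cxcl16* followed at 475, *Il18* at 355, *Cx3cl1* at 248, *Ccl28* at 177, *Tnfaip3* at 118 and *Nfkbiz* at 99.95. Each of these shared part of its range over the 4 libraries with its neighbour in the order. A second gap separated *Nfkbiz*, at 78.8 or more in every library, from *Cxcl1*, at 60.0 or less. *Cxcl1* at 39.7, *Ccl20* at 26.0 and *Cxcl5* at 22.9 formed the low end, with overlapping ranges. These low genes also varied most, with a highest library 5.19 times the lowest for *Ccl20*, 3.55 times for *Cxcl5* and 3.24 times for *Cxcl1*, against 1.30 to 1.81 times for the other seven.

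**Figure D1:**
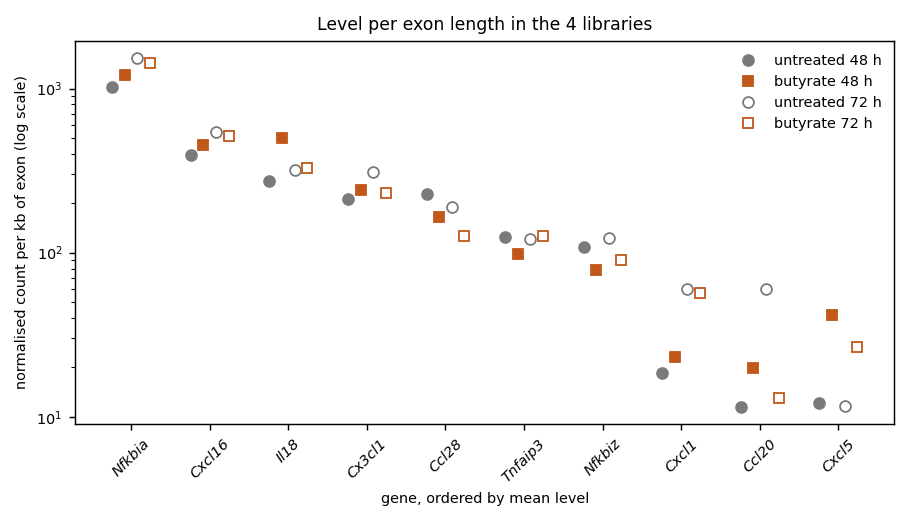
Normalised counts per kb of exon (vertical axis, log scale) for the 10 genes in order of their mean level, with 1 point for each of the 4 libraries. *Nfkbia* lies above the rest in all libraries, and *Cxcl1*, *Ccl20* and *Cxcl5* lie below the other seven.

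Among the feedback genes, *Nfkbiz* was lower with butyrate at both times, *Tnfaip3* was lower at 48 h alone, and *Nfkbia* was higher at 48 h, with a 72 h interval that was below 0 or held 0 depending on the scaling. *Nfkbia* (ENSMUSG00000021025.8, chr12:55489410-55492647) encodes IkB-alpha, the inhibitor that is degraded on activation and made again in response to NF-kB. It had 1602 (untreated) and 2136 (butyrate) counts in the 48 h libraries, against 2496 and 2131 in those of 72 h. Scaled by DESeq2 size factors, these were 1638 and 1938 normalised counts at 48 h and 2465 and 2302 at 72 h, so that both 72 h libraries stood above both 48 h libraries. The log2 ratio (log2 fold change) of butyrate to untreated, taken after adding 1 normalised count, was 0.24 at 48 h (0.15 to 0.34) and −0.10 at 72 h (−0.18 to −0.01), or −0.05 at 72 h (−0.13 to 0.04) with scaling by total counts.

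*Nfkbiz* (ENSMUSG00000035356.17, chr16:55811375-55838899) encodes IkB-zeta, a nuclear IkB protein that acts as a cofactor for a subset of NF-kB targets and in epithelium responds to interleukin-17. It had 533 (untreated) and 436 (butyrate) counts in the 48 h libraries, against 622 and 418 in those of 72 h. Both butyrate libraries were below both untreated libraries. The log2 ratios were of like size, at −0.46 (−0.65 to −0.28) at 48 h and −0.44 (−0.63 to −0.26) at 72 h. *Tnfaip3* (ENSMUSG00000019850.11, chr10:19000910-19015657) encodes A20, a ubiquitin-editing enzyme that shuts off signalling upstream of the IkB kinase. It had 877 and 777 counts at 48 h, then 891 and 849 a day later. The butyrate library at 48 h was the only low one, at 705 normalised counts against 879.8 to 917 in the other libraries. Its log2 ratio was −0.35 at 48 h (−0.49 to −0.21) and 0.06 at 72 h (−0.08 to 0.20), where the interval held 0.

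**Figure D2:**
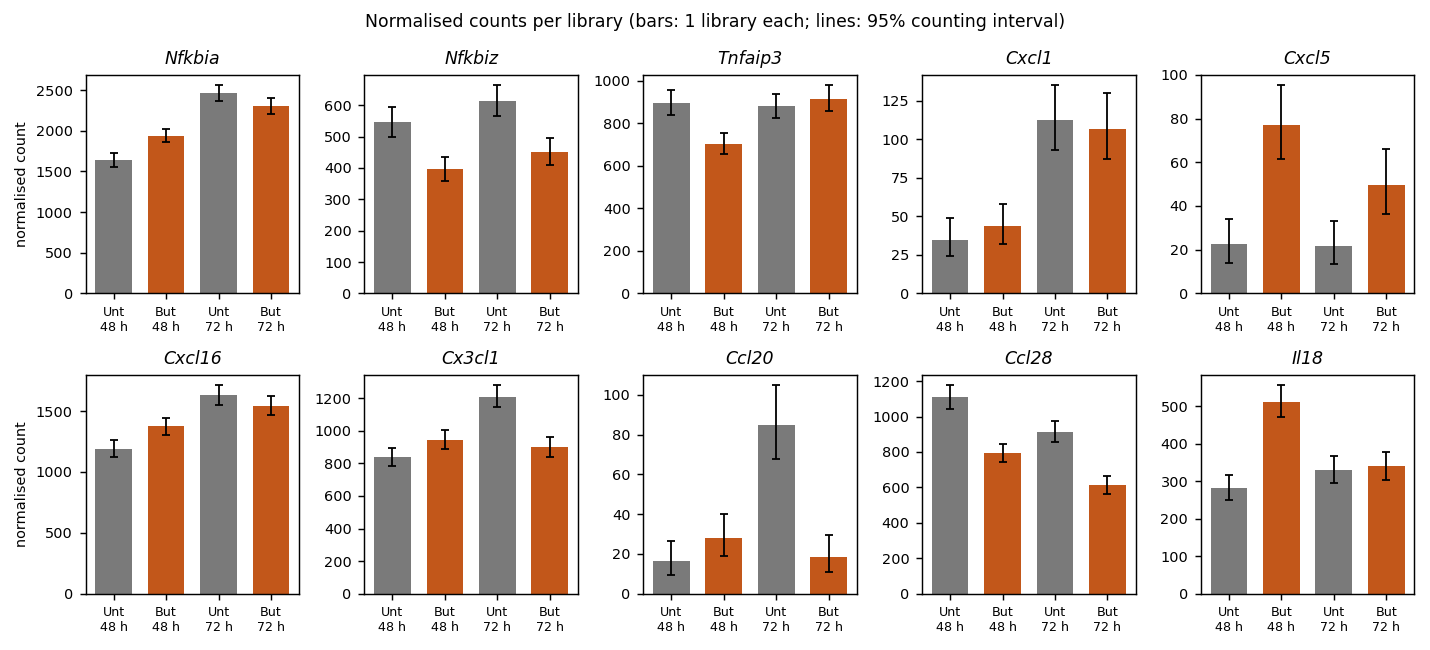
Normalised counts (vertical axes, each from 0) of the 10 genes in the untreated (Unt, grey) and butyrate (But, orange) libraries at 48 h and 72 h; each bar is 1 library and the lines are 95% counting intervals. *Nfkbiz* and *Ccl28* are lower and *Cxcl5* is higher with butyrate at both times, and *Ccl20* stands out in the untreated library at 72 h.

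*Cxcl5* was the only one of the 10 genes that was higher with butyrate at both times with intervals above 0. *Cxcl1* and *Cxcl5* encode neutrophil-attracting chemokines of the CXC class that signal through the receptor CXCR2, and both lie in a chemokine cluster on chromosome 5. *Cxcl5* (ENSMUSG00000029371.7, chr5:90759360-90761624) had 22 (untreated) and 85 (butyrate) counts in the 48 h libraries, against 22 and 46 in those of 72 h. The 2 untreated libraries were level and both butyrate libraries were above them. *Cxcl5* was 3.32-fold higher with butyrate at 48 h, a log2 ratio of 1.73 (1.09 to 2.53), and 2.23-fold higher at 72 h, a log2 ratio of 1.16 (0.43 to 2.00).

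*Cxcl5* was highest in the library in which *Cd68* was also highest, the butyrate library at 48 h. The log2 ratios of *Cd68* were 3.17 (2.92 to 3.46) at 48 h and 1.41 (1.16 to 1.68) at 72 h, and *Itgam* was at −0.57 and 0.19. Of the 8 immune markers that did not pass the filter, *Csf1r*, a receptor of macrophages, had 1 and 2 counts at 48 h, then 0 and 16 a day later, *Ptprc* had at most 15 and the other six at most 5. The part of immune cells in the *Cxcl5* values was not tested. *Cxcl1* (ENSMUSG00000029380.11, chr5:90891241-90893115), by contrast, had 34 and 48 counts at 48 h, then 114 and 99 a day later, so that its libraries were ordered by time and not by butyrate. Its log2 ratios with butyrate, 0.32 (−0.34 to 1.00) at 48 h and −0.07 (−0.48 to 0.33) at 72 h, had intervals that held 0, so that at this depth no difference was detectable.

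*Cxcl16* and *Cx3cl1* encode chemokines that are made as transmembrane proteins on a mucin-like stalk and are released by the proteases ADAM10 and ADAM17. CXCL16 binds CXCR6 on T cells and innate lymphocytes, and CX3CL1, or fractalkine, binds CX3CR1 on intestinal macrophages. *Cxcl16* (ENSMUSG00000018920.11, chr11:70453983-70459984) had 1163 (untreated) and 1517 (butyrate) counts in the 48 h libraries, against 1653 and 1431 in those of 72 h. Its log2 ratio was 0.21 at 48 h (0.10 to 0.32) and −0.08 at 72 h (−0.18 to 0.02). The untreated library at 48 h was the lowest of the 4, as for *Nfkbia*. Exons of *Zmynd15* overlap those of *Cxcl16* on the other strand, and *Zmynd15* had between 32 and 72 counts. Whether the counting used the strand is not given in the sources used here.

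*Cx3cl1* (ENSMUSG00000031778.13, chr8:94772009-94782427) had 820 and 1043 counts at 48 h, then 1226 and 835 a day later. The untreated library at 72 h stood alone, at 1211 normalised counts against 838 to 946 in the other libraries. Butyrate over untreated gave a log2 ratio of 0.17 (0.04 to 0.31) at 48 h and of −0.42 (−0.55 to −0.30) at 72 h. For the proteases, *Adam10* was at −0.13 (−0.19 to −0.06) and −0.08 (−0.15 to −0.02), and *Adam17* at 0.10 (−0.01 to 0.21) and 0.33 (0.22 to 0.43). With scaling by total counts the 72 h interval of *Adam10* held 0.

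Of the CC chemokines, *Ccl28* was lower with butyrate at both times, and *Ccl20* was lower at 72 h by more than any other of the 10 genes. CCL20 binds CCR6 on dendritic cells, B cells and T helper cells and is known from the epithelium over lymphoid follicles, and CCL28 binds CCR10 on plasma cells that make IgA. *Ccl20* (ENSMUSG00000026166.14, chr1:83116766-83119167) had 16 (untreated) and 31 (butyrate) counts in the 48 h libraries, against 86 and 17 in those of 72 h. A single library, the untreated one at 72 h, was high, at 84.9 normalised counts against 16.4 to 28.1 in the other libraries. *Ccl20* was 4.44-fold lower with butyrate at 72 h, a log2 ratio of −2.15 (−3.05 to −1.45), whereas the interval at 48 h included 0 (0.75, −0.13 to 1.75).

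*Ccl28* (ENSMUSG00000074715.3, chr13:119623819-119654359) had 1084 (untreated) and 874 (butyrate) counts in the 48 h libraries, against 927 and 567 in those of 72 h. Both butyrate libraries, at 793 and 612 normalised counts, were below both untreated libraries, at 1108 and 915. The log2 ratios were −0.48 (−0.61 to −0.35) at 48 h and −0.58 (−0.73 to −0.43) at 72 h. *Il18* (ENSMUSG00000039217.13, chr9:50554827-50581840) encodes a cytokine of the interleukin-1 family that is kept as a precursor and cut by caspase-1. It had 276 and 564 counts at 48 h, then 335 and 314 a day later. The butyrate library at 48 h was the only high one, at 512 normalised counts against 282 to 339 in the other libraries. *Il18* was 1.81-fold higher with butyrate at 48 h, a log2 ratio of 0.86 (0.65 to 1.07), and at 72 h its log2 ratio was 0.04 (−0.19 to 0.26).

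Of the 11 epithelial markers, 2 were at least 2-fold higher with butyrate at 48 h. The median log2 ratio of the 11 was 0.09 at 48 h and −0.20 at 72 h. The pair past 2-fold, both colonocyte markers, was also highest in the butyrate library at 48 h. *Slc26a3*, the apical chloride and bicarbonate exchanger, had log2 ratios of 1.29 (1.23 to 1.35) at 48 h and −0.20 (−0.26 to −0.13) at 72 h, and *Car1*, a carbonic anhydrase, of 1.14 (1.12 to 1.16) and −0.88 (−0.90 to −0.85). Among all 11 epithelial markers the interval was above 0 for 7 and below 0 for 4 at 48 h, and above 0 for 1 and below 0 for 10 at 72 h, beside 29.3% and 31.3% of all tested genes at 48 h and 25.9% and 26.4% at 72 h. Counts of these markers are high, so that small differences also exclude 0. The part of colonocyte maturation in the *Il18* values was not tested.

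**Figure D3:**
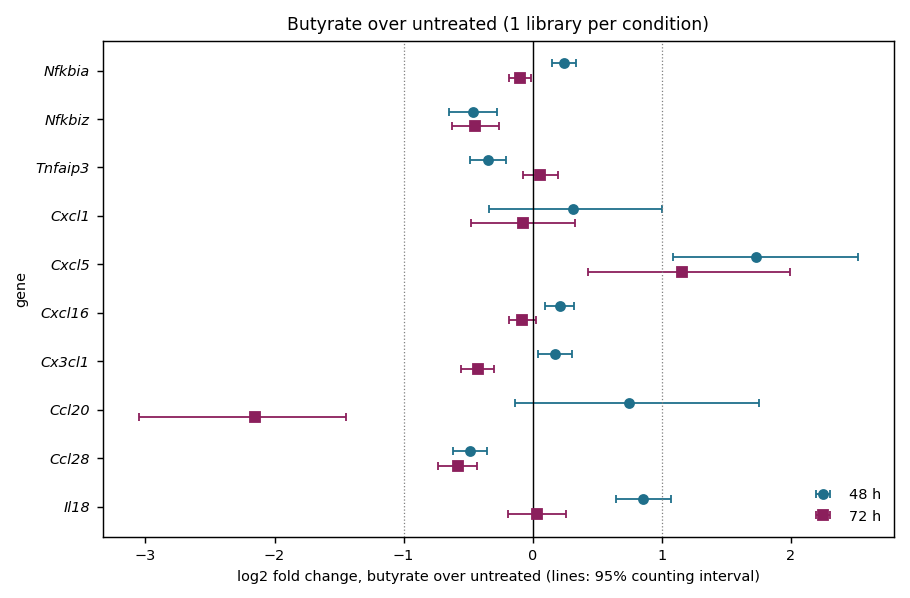
Log2 fold change of butyrate over untreated (horizontal axis) for the 10 genes at 48 h (circles) and 72 h (squares), with 95% counting intervals and dotted lines at 2-fold. *Cxcl5* lies at 1.73 and 1.16, *Ccl20* at 0.75 and −2.15, and *Nfkbiz* and *Ccl28* lie below 0 at both times.

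Read together, 1 of the 10 genes (*Cxcl5*) lay 2-fold or more apart with and without butyrate at 48 h, where 10.0% of all tested genes did so. At 72 h there were 2 (*Cxcl5* higher and *Ccl20* lower), against 8.31% of all tested genes. Counting intervals excluded 0 for 8 of the 10 genes at 48 h and for 6 at 72 h, against 60.7% and 52.3% of all tested genes. At 48 h, 5 genes had intervals above 0 (29.3% of all tested genes) and 3 below (31.3%). At 72 h 1 was above (25.9%) and 5 below (26.4%), or 1 (31.9%) and 4 (21.2%) with scaling by total counts. The median log2 fold change over the 10 genes was 0.23 at 48 h and −0.09 at 72 h, beside −0.01 and 0.00217 over all tested genes. Intervals were below 0 at both times for *Nfkbiz* and *Ccl28*, as for 13.6% of all tested genes, and above 0 at both times for *Cxcl5*, as for 12.9%. They were above 0 at 48 h and below 0 at 72 h for *Nfkbia* and *Cx3cl1*, as for 4.54%, but the 72 h interval of *Nfkbia* held 0 with scaling by total counts. *Cxcl5* was at least 2-fold higher at both times, as were 2.55% of all tested genes.

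Time in culture was compared next, within the untreated and within the butyrate libraries, which are the same 4 libraries as above. In untreated colonoids 2 of the 10 genes, *Ccl20* and *Cxcl1*, were at least 2-fold higher at 72 h than at 48 h, as were 2.66% of all tested genes, and 0 were at least 2-fold lower (1.82% of all). *Ccl20* was 4.95-fold higher, a log2 ratio of 2.31 (1.60 to 3.25), and *Cxcl1* was 3.18-fold higher, a log2 ratio of 1.67 (1.13 to 2.29). *Nfkbia* was higher by 0.59 (0.50 to 0.68), *Cx3cl1* by 0.53 (0.40 to 0.66) and *Cxcl16* by 0.46 (0.35 to 0.57) on the log2 scale. Intervals were above 0 for 6 of the 10 genes, *Nfkbiz* among them at 0.17, where 22.4% of all tested genes had such intervals. With scaling by total counts *Nfkbiz* was at 0.09 (−0.08 to 0.26), and 5 of the 10 genes and 14.2% of all tested genes had intervals above 0. *Ccl28* was the only one with an interval below 0, at −0.28 (−0.40 to −0.15), beside 20.2% of all tested genes, or 31.6% with scaling by total counts. The median over the 10 genes was 0.34, beside 0.00268 over all tested genes. The untreated library at 72 h, in which *Nfkbia*, *Nfkbiz*, *Cxcl1*, *Cxcl16*, *Cx3cl1* and *Ccl20* were highest, also had the highest mitochondrial share, at 18.4% against 15.1% untreated at 48 h, 14.1% with butyrate at 48 h and 16.3% with butyrate at 72 h. The part of RNA quality in these values was not tested.

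With butyrate, 1 of the 10 genes was at least 2-fold higher at 72 h than at 48 h, as were 3.67% of all tested genes, and 0 were lower (4.95% of all). Intervals were above 0 for 4 genes (30.0% of all) and below 0 for 3 (31.4%). The gene past 2-fold was *Cxcl1*, at 1.28 (0.78 to 1.82) on the log2 scale. *Tnfaip3* was higher by 0.38 (0.24 to 0.52), *Nfkbia* by 0.25 (0.16 to 0.34) and *Cxcl16* by 0.17 (0.06 to 0.27). Lower at 72 h were *Cxcl5* at −0.62 (−1.18 to −0.10), *Il18* at −0.59 (−0.80 to −0.39) and *Ccl28* at −0.37 (−0.53 to −0.22). The value of *Ccl20* was −0.59 (−1.56 to 0.28) and that of *Cx3cl1* was −0.07 (−0.20 to 0.06), so that neither showed in butyrate-treated cultures the higher level at 72 h seen in untreated ones. Whether the differences over time are of another size in butyrate-treated than in untreated colonoids could not be tested with 1 library per condition. The median over the 10 genes was 0.05, beside −0.01 over all tested genes.

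**Figure D4:**
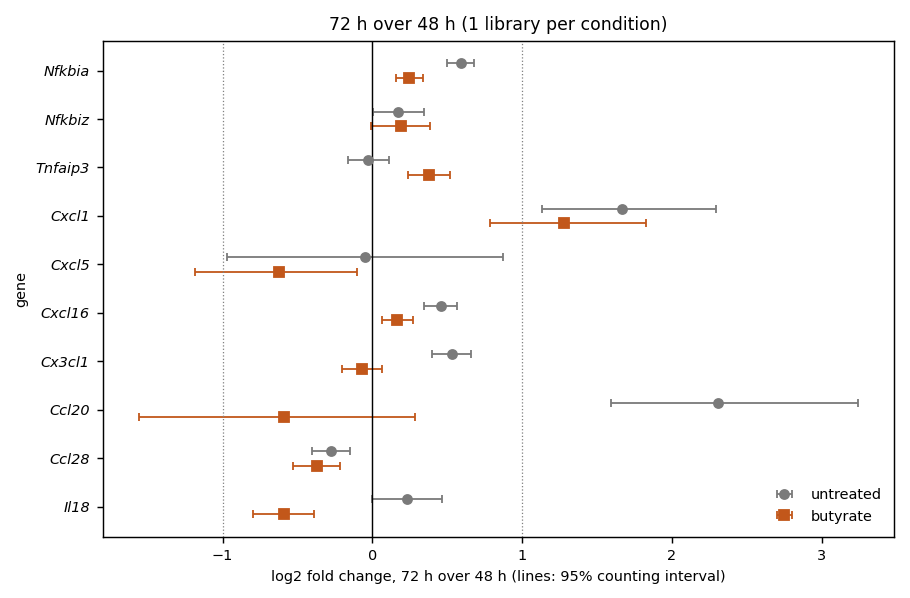
Log2 fold change of 72 h over 48 h (horizontal axis) for the 10 genes in untreated (grey circles) and butyrate-treated (orange squares) colonoids, with 95% counting intervals and dotted lines at 2-fold. *Cxcl1* lies at 1.67 and 1.28, and *Ccl20* at 2.31 untreated and −0.59 with butyrate.

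Profiles over the 4 libraries were compared among the 10 genes by the Euclidean distance of log2 normalised counts centred on each gene's mean. The closest pair was *Nfkbia* and *Cxcl16*, at a distance of 0.11, and *Cx3cl1* was nearest to *Cxcl16*, at 0.26. In each of them the untreated library was lowest at 48 h and highest at 72 h. *Nfkbiz* and *Tnfaip3* were each other's nearest, at 0.36, and *Ccl28* was nearest to *Nfkbiz*, at 0.51. *Ccl20*, *Cxcl1* and *Cxcl5* had no near neighbour, with distances of 1.43, 1.05 and 1.02. These distances describe 4 libraries, and counting error is largest for *Ccl20*, *Cxcl1* and *Cxcl5*.

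Other genes of the pathway were taken from lists. Of all tested genes, 6.94% were at least 2-fold higher and 3.08% lower with butyrate at 48 h, and 4.53% higher and 3.78% lower at 72 h. All 5 NF-kB subunit genes were lower with butyrate at both times with intervals below 0, as were 13.6% of all tested genes. None of the 5 differed 2-fold. *Nfkb2*, which encodes the p100 precursor of the non-canonical pathway, had 1145 (untreated) and 772 (butyrate) counts at 48 h, then 1342 and 821 a day later. Its log2 ratios were −0.74 (−0.87 to −0.61) and −0.58 (−0.71 to −0.45). *Relb*, its dimer partner, was at −0.63 (−0.79 to −0.47) and −0.62 (−0.78 to −0.46).

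For the canonical subunits no difference between the times was tested. *Nfkb1*, the precursor of p50, was at −0.53 (−0.63 to −0.44) at 48 h and −0.20 (−0.29 to −0.11) at 72 h, and *Rela*, which encodes p65, at −0.48 (−0.59 to −0.36) and −0.20 (−0.30 to −0.10). *Rel* was at −0.41 (−0.62 to −0.21) and −0.32 (−0.49 to −0.15). The median of the subunits was −0.53 at 48 h and −0.32 at 72 h. *Nfkbia*, which encodes IkB-alpha, was thus higher at 48 h in the library in which each subunit gene was lower than untreated. At 72 h each subunit gene was again lower, and *Nfkbia* was at −0.10. With scaling by total counts it was at −0.05, with an interval that held 0.

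Of 15 other IkB and feedback genes, such as *Bcl3*, *Cyld* and *Tnip1*, all passed the filter. At 48 h 1 was at least 2-fold higher and 0 lower, and at 72 h 0 were higher and 1 lower. Both calls were of *Traf1*, an adaptor of TNF receptors, which had 8 and 25 counts at 48 h, then 16 and 1 a day later, a log2 ratio of 1.37 (0.28 to 2.83) and of −3.01 (−9.26 to −1.18). All 20 kinases and adaptors passed the filter, and 0 of them reached 2-fold at either time. Their medians were −0.13 at 48 h and −0.03 at 72 h. At 48 h intervals were below 0 for 9 of these 20 and above 0 for 2, and at 72 h for 6 and 3. For the 15 feedback genes they were below for 7 and above for 2 at 48 h, and for 5 and 1 at 72 h. Over all tested genes, 31.3% were below and 29.3% above at 48 h, and 26.4% and 25.9% at 72 h. With scaling by total counts, 72 h intervals were below 0 for 4 and above for 5 of the 20. For the 15 these numbers were 4 and 2, beside 21.2% and 31.9% of all tested genes.

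Upstream of the pathway, 20 of 25 receptors and ligands passed the filter, with medians of −0.09 at 48 h and −0.10 at 72 h. At 48 h 1 was at least 2-fold higher and 1 lower, and at 72 h 1 was higher and 2 lower. Intervals were below 0 for 7 (31.3% of all tested genes) and above 0 for 4 (29.3%) at 48 h. At 72 h they were below for 5 (26.4%) and above for 3 (25.9%). *Il1r1*, the signalling receptor for interleukin-1, had 329 (untreated) and 90 (butyrate) counts at 48 h, then 449 and 138 a day later. Both butyrate libraries were below both untreated ones, at log2 ratios of −2.03 (−2.40 to −1.70) and −1.57 (−1.86 to −1.29). *Lta*, which encodes lymphotoxin-alpha, had 6 and 19 counts at 48 h, then 12 and 5 a day later, at 1.35 (0.11 to 3.10) and −1.01 (−2.99 to 0.47). *Cd40*, a receptor of the TNF family, was at 0.22 (−0.62 to 1.10) and 1.09 (0.36 to 1.94). Of the ligands, *Il1b* had no count in any library, and *Tnf* had between 317 and 455 counts and log2 ratios of 0.19 and −0.16.

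**Figure D5:**
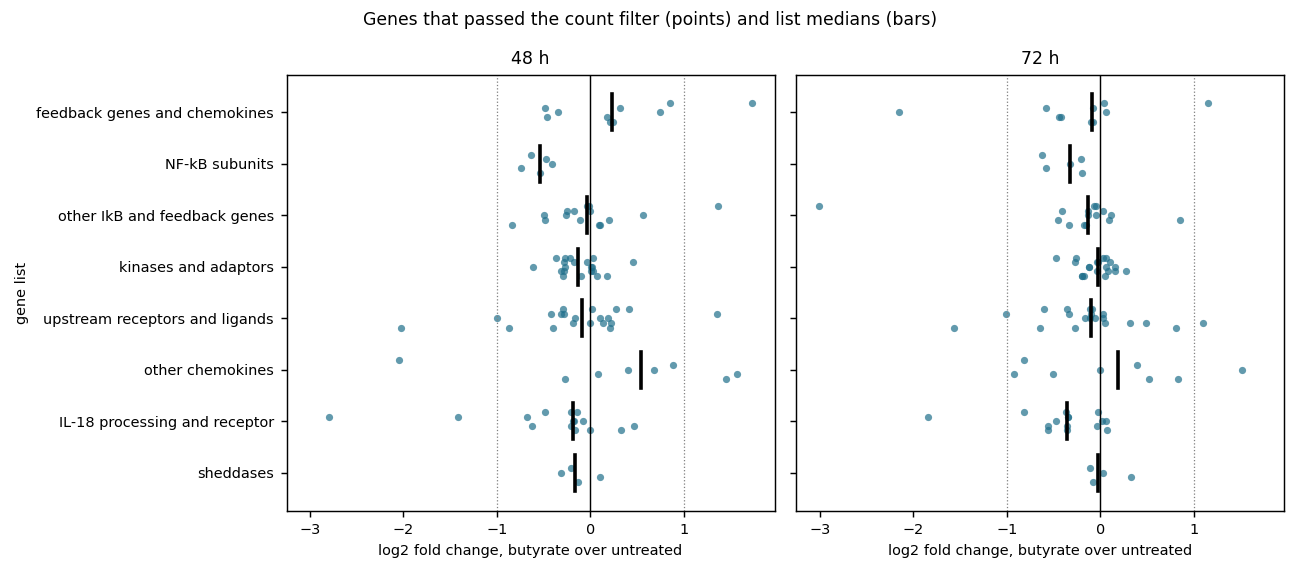
Log2 fold change of butyrate over untreated (horizontal axes) at 48 h and 72 h for the 10 feedback genes and chemokines and for 7 pathway lists; points are genes that passed the count filter, black bars are list medians and dotted lines mark 2-fold. The 5 NF-kB subunits all lie below 0 in both panels.

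Of 7 receptor genes for the chemokines, only *Cxcr2* passed the filter, and the others were near or below the detection limit of these libraries. *Cxcr6* and *Ccr10* had no count in any library, *Cxcr1*, *Ccr6* and *Ccr3* had at most 2 counts, and *Cx3cr1* had between 1 and 9. *Cxcr2*, the receptor of CXCL1 and CXCL5, had 14 and 11 counts at 48 h, then 9 and 5 a day later. Its log2 ratios were −0.48 at 48 h and −0.63 at 72 h, with intervals that held 0. At this depth 3 counts correspond to between 0.124 and 0.144 CPM.

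Genes of a list of inflammasome sensors and adaptors, caspases, the interleukin-18 receptor and binding protein and others were mostly lower with butyrate. Of 16, 15 passed the filter, and intervals were below 0 for 10 and above 0 for 2 at 48 h, and below 0 for 9 and above 0 for 1 at 72 h. Over all tested genes these shares were 31.3% below and 29.3% above at 48 h, and 26.4% and 25.9% at 72 h. *Casp1*, the protease that matures interleukin-18, was at −0.17 (−0.26 to −0.07) and −0.36 (−0.46 to −0.26), and *Casp4*, which acts in the non-canonical inflammasome, at −0.63 (−0.81 to −0.45) and −0.56 (−0.73 to −0.39). *Nlrp1b*, an inflammasome sensor, had 49 and 20 counts at 48 h, then 73 and 18 a day later, with log2 ratios of −1.42 (−2.29 to −0.69) and −1.84 (−2.72 to −1.13). *Il18r1*, the receptor's binding chain, had 49 and 7 counts at 48 h, then 56 and 40 a day later, with log2 ratios of −2.80 (−4.37 to −1.83) and −0.35 (−0.98 to 0.26). The list's medians were −0.18 and −0.36, so that at 48 h *Il18* and most of these genes differed from untreated in opposite directions. Counts of the near-identical *Naip* genes on this list depend on how reads were shared between the copies.

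Among 25 other chemokine genes, 8 passed the filter and 6 had no count in any library. At 48 h 2 of the 8 were at least 2-fold higher and 1 lower, and at 72 h 1 was higher and 0 lower. Intervals were above 0 for 5 of the 8 (29.3% of all tested genes) and below 0 for 1 (31.3%) at 48 h. At 72 h they were above for 3 (25.9%) and below for 2 (26.4%). *Cxcl9*, a ligand of CXCR3 induced by interferon, had 20 and 69 counts at 48 h, then 19 and 12 a day later, at log2 ratios of 1.57 (0.88 to 2.41) and −0.50 (−1.71 to 0.58). *Ccl2*, which attracts monocytes, had 58 and 15 counts at 48 h, then 72 and 37 a day later, at −2.05 (−3.05 to −1.29) and −0.82 (−1.44 to −0.24). *Ccl6*, at 1.45 at 48 h, and *Cxcl10*, at 1.52 at 72 h, were the other two past 2-fold. *Ppbp*, which did not pass the filter and is a further ligand of CXCR2 from the cluster on chromosome 5, had 1 and 20 counts at 48 h, then 2 and 0 a day later.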

How the data were processed

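RNA from colonoids was enriched for poly-A mRNA and sequenced with 1 library per condition. The authors deposited whole-number counts per gene: reads were quantified with a kallisto-based pipeline (kallisto 0.44.0 and GRCm38.p6 in the submitters' processing notes) and summed to genes with tximport, so the counts are rounded estimates without normalisation. Samples were grouped by their titles. Size factors came from DESeq2 1.42.0 and TMM factors from edgeR 4.0.16 in R 4.3.3, over the 13979 genes that exceeded 10 counts in 2 or more libraries, as in the methods. Other steps used Python 3.11.15, scipy 1.17.1, pandas 2.3.3, matplotlib 3.10.9 and numpy 2.4.6. Log2 ratios were taken after adding 1 normalised count, and no test was run. Ratios and 95% intervals were tested on simulated data. The simulated counts held counting error alone, as the intervals assume, so this checked the calculation and not the spread between cultures. No molecular identifiers are described, so reads are not independent molecules and intervals and floors cover counting error only. Positions and exon lengths came from GENCODE M21 (GRCm38).

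The 10 genes and the lists were chosen with earlier results of these data known, and the kB consensus was settled on after looser and narrower letters had been searched in the same promoters. Named from the lists were genes with at least 20 counts in a library and a 2-fold difference at 48 h or 72 h, at most 3 per list, with the NF-kB subunits and the chemokine receptors. Other genes named (*Cxcl10*, *Ccl6*, *Casp1*, *Casp4*, *Adam10*, *Adam17*, *Tnf*, *Il1b*, *Itgam*, *Lta*, *Csf1r*, *Ptprc*, *Adgre1*, *C1qb*, *Gp2*, *Sox8*, *Ffar3*, *Hcar2* and *Zmynd15*) were chosen after their values were seen. The alternatives tried were TMM and total count scaling, other pseudocounts, filters and fold thresholds, and the longest transcript as gene length.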

Additional observations from a re-analysis of the deposited data

Results flagged for a closer look

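*Nfkbia* and *Cx3cl1* lay above untreated at 48 h and below it at 72 h, with all 4 counting intervals excluding 0. The log2 ratio of *Nfkbia* was 0.24 at 48 h and −0.10 at 72 h, and that of *Cx3cl1* was 0.17 at 48 h and −0.42 at 72 h. With scaling by total counts, *Nfkbia* was at −0.05 (−0.13 to 0.04) at 72 h, so that its interval held 0. An interval above 0 at 48 h and below 0 at 72 h was found for 4.54% of all tested genes. With 1 library per condition, the difference between the time points was not tested. *Ccl20* had a larger spread, from 0.75 to −2.15, but its interval at 48 h included 0.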

How the results depend on the processing

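All 160 recomputed log2 ratios of the 10 genes stayed within their counting intervals without a change of sign when counts were scaled by TMM or by their total and with pseudocounts of 5 and 0.5. Total count scaling shifted the median of all tested genes by at most 0.08 (at −0.08 for untreated, 72 h over 48 h). It moved the median of the 10 genes from −0.09 to −0.04 for butyrate at 72 h and from 0.05 to 0.02 for butyrate, 72 h over 48 h, and the intervals of *Nfkbia* (butyrate, 72 h) and *Nfkbiz* (untreated, 72 h over 48 h) then held 0. TMM scaling moved no interval of the 10 genes across 0. The count of the 10 genes at or past the fold threshold depended on that threshold and on the filter. With 1.5-fold in place of 2-fold it was 3 instead of 1 at 48 h and stayed at 2 at 72 h. Over time it was then 3 instead of 2 for untreated and 4 instead of 1 for butyrate, 72 h over 48 h. With a minimum of 50 for the mean normalised count, a filter that *Cxcl5* and *Ccl20* do not pass, it was 0 at 48 h, 0 at 72 h and 1 for untreated, 72 h over 48 h. Under that filter the share of all genes past 2-fold was 5.48% at 48 h, 3.93% at 72 h, 1.60% for untreated over time and 4.16% for butyrate over time. At 1.5-fold it was 22.0%, 18.0%, 12.0% and 21.6%, respectively. With the longest transcript as length, *Tnfaip3* (137 per kb) and *Ccl28* (229 per kb) left the range of their libraries, and the order of the 10 levels was unaltered. No paired analysis was possible because there are no replicates to pair by number, and an additive model of treatment and time over the 4 libraries was not run. Depth limits *Ccl20*, *Cxcl5* and *Cxcl1* most, with between 16 and 114 counts.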

Other observations

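Genes of neighbouring programmes in the same libraries are given as values. *Tnfaip2*, a TNF-inducible gene that is also a marker of M cells, had 185 (untreated) and 535 (butyrate) counts at 48 h, then 153 and 321 a day later, with log2 ratios of 1.35 (1.12 to 1.61) and 1.19 (0.92 to 1.49). *Spib*, a transcription factor needed for M cells, was lower instead, with 32 and 17 counts at 48 h, then 32 and 4 a day later, at −1.04 (−2.03 to −0.19) and −2.62 (−4.83 to −1.38). The M cell gene *Gp2* had no count in any library, and *Sox8* had at most 1.

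*Ffar2*, a receptor for short-chain fatty acids, had 139 (untreated) and 84 (butyrate) counts at 48 h, then 92 and 32 a day later, with log2 ratios of −0.89 (−1.31 to −0.50) and −1.37 (−2.02 to −0.80). *Ffar3* and *Hcar2* had at most 6 counts in a library. Of the chemokines outside the 10, *Ccl6* had 651 and 2007 counts at 48 h, then 1230 and 1611 a day later, at 1.45 (1.32 to 1.58) and 0.52 (0.41 to 0.63). *Cxcl10*, an interferon-induced ligand of CXCR3, had 39 and 71 counts at 48 h, then 26 and 70 a day later, at 0.68 (0.11 to 1.29) and 1.52 (0.89 to 2.27).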
